A study of Mus musculus with 12 samples.

Results

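The amino acid transporter genes described here are the genes whose platform symbol begins with Slc1a, Slc3a, Slc6a, Slc7a, Slc36a, Slc38a or Slc43a and a number. By this rule 63 of the 18193 genes with a probe set of 1 symbol were members, measured by 125 of the 45101 probe sets on the array. Where a gene had several probe sets, the one of highest mean signal on all 12 arrays stood for it. The name is slightly too wide, since 3 members (Slc6a19os, Slc7a6os and Slc36a1os) are transcripts named after the opposite strand of a transporter gene and several Slc6 members carry taurine, creatine or neurotransmitters. RNA came from mouse skeletal muscle, each sample on its own Affymetrix array, in 4 groups of 3 arrays: wild type (WT), knockout of Stat5a and Stat5b (KO), WT treated with growth hormone (GH) and KO treated with GH. Here WT+GH and KO+GH stand for the treated groups. STAT5A and STAT5B carry the signal of the GH receptor to the genome. The treatment labels speak of a deletion in blood cells, whereas the series title is about muscle. The labels give no Cre driver, strain, age, sex, muscle, GH dose or duration. Nothing but an animal number in each title says that arrays are separate animals, so p-values measure the spread between these arrays.

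Amino acids cross the plasma membrane on carriers that differ in substrate, ion coupling and partner. SLC3A2 is a heavy chain that brings SLC7 light chains such as SLC7A5 and SLC7A8 to the cell surface, where they exchange large neutral amino acids including leucine. SLC38A2 pumps small neutral amino acids such as alanine and glutamine inward with sodium, and its RNA is known to rise when amino acids are scarce. SLC36A1 and SLC38A9 sit on the lysosome, where SLC38A9 reports arginine to the growth kinase mTORC1.

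The deleted genes were checked first. Stat5b signal was 2640 to 2955 in WT and 372.1 to 497.5 in KO, and with GH 1694 to 1896 in WT and 332.7 to 378.4 in KO. Stat5a was 560.9 to 729.9 in WT and 170.0 to 361.2 in KO, and with GH 384.3 to 436 in WT and 129.5 to 196.4 in KO. Neither gene's WT and KO arrays overlapped, with or without GH. All 12 skeletal muscle markers were above background on every array. Arrays with GH also differed in added bacterial poly-A control RNA, with a geometric mean signal of 442.3 to 467.2 against 129 to 167.5 without GH. Beta actin signal at the 3 prime end over that at the 5 prime end was 0.887 to 1.01 on these arrays and 0.805 to 0.864 on the rest. Within the treated arrays it was 0.887 to 0.932 in WT+GH and 0.962 to 1.01 in KO+GH, and the same ratio for Gapdh was 0.842 to 0.860 and 0.795 to 0.830, so that both also separate the genotypes under GH. Their part in the results was not tested. GH treatment and the poly-A and actin differences cannot be told apart in any comparison of arrays with and without GH, the interaction included. Nor can genotype and the actin and Gapdh ratios be told apart in KO against WT with GH.

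Nearly as many members gave a signal above background in muscle as did not. Background was set on each array as the 95th percentile of 84 probe sets for 76 olfactory, vomeronasal and taste receptor genes, which ranged from 71 to 104.6 over the 12 arrays. A gene counted as above background in a group when all 3 arrays passed their own limit. By this measure 30 of 63 members (47.6%) were above background in all 4 groups, beside 53.9% of all genes. Another 3 were above in some groups, and 30 in none. The limit compares different probe sets and is a rough guide, and a signal below it gives only an upper bound on the RNA. At the 99th percentile of the receptor probe sets 23 members stayed above it on all arrays.

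The share above background differed by family. All 3 Slc43 genes, 8 of 9 Slc38 genes, 9 of 16 Slc7 genes and 3 of 5 Slc36 genes were above background in all 4 groups. In the Slc3 family this held for Slc3a2 and not for Slc3a1, the heavy chain of kidney and gut. It held for 2 of 7 Slc1 genes, namely Slc1a3 and the glutamine exchanger gene Slc1a5. It held for 4 of 21 Slc6 genes, which were the taurine carrier Slc6a6, the creatine carrier Slc6a8, the glycine carrier Slc6a9 and Slc6a17, a carrier of synaptic vesicles. The 3 genes above in some groups were Slc1a1, Slc6a2 and Slc36a3. Slc1a1 missed the limit in WT+GH, where 1 array had a signal of 84.77, while another of its probe sets, at 117.3, 107.4 and 136.6, was above the limit on those 3 arrays. Slc36a3 missed it in WT, where 1 array had 25.68 and the others 110.8 and 115.4. Slc6a2, the noradrenaline carrier, met the rule in WT and KO but not with GH, where 1 array of each treated group fell short.

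The 30 members below the limit in every group came from all families but Slc43. In the Slc6 family they were Slc6a3, Slc6a4, Slc6a5, Slc6a7, Slc6a11 to Slc6a16, Slc6a18, Slc6a19, Slc6a19os, Slc6a20a, Slc6a20b and Slc6a21. In the Slc7 family they were Slc7a3, Slc7a9, Slc7a11, Slc7a12, Slc7a13, Slc7a14 and Slc7a15. The others were Slc1a2, Slc1a4, Slc1a6, Slc1a7, Slc3a1, Slc36a1os and Slc38a5. Slc7a11, the light chain of the cystine and glutamate exchanger, averaged 27.8 ± 8.2 (SD, n = 3) in the WT arrays and 16.9 ± 10.6 in KO+GH.

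**Figure D1:**
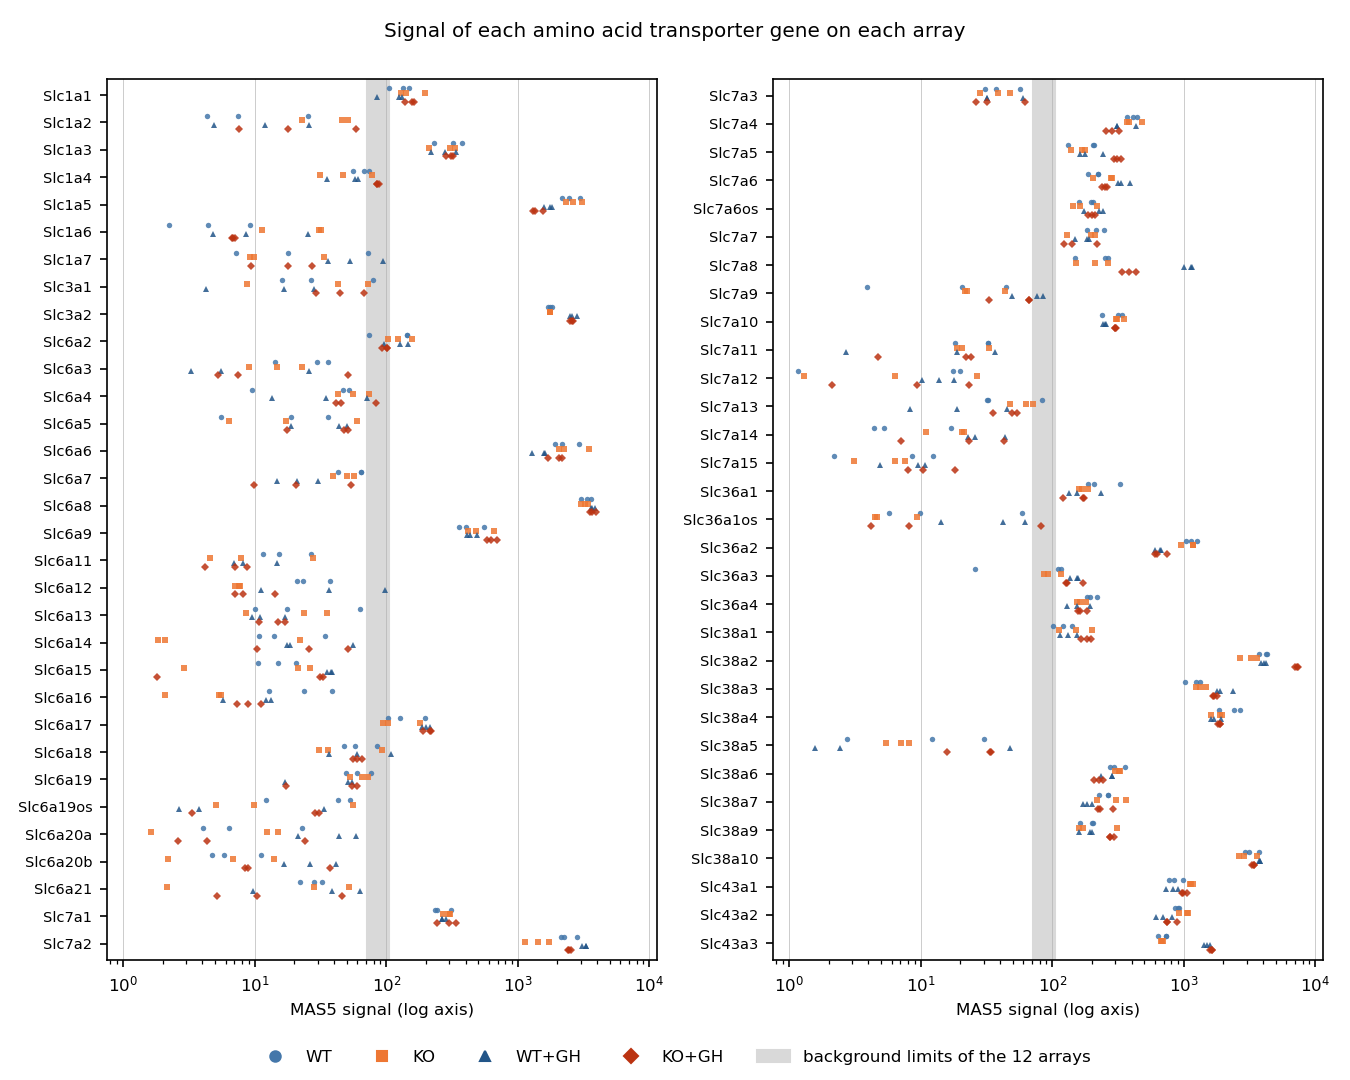
MAS5 signal (log axis) of each of the 63 members on each of the 12 arrays, with symbol and colour giving the group. The grey band spans the background limits of the 12 arrays, 71 to 104.6; of the 30 members above background in all groups, all but Slc6a17 and Slc38a1, with lowest arrays of 93.81 and 101.2, lie wholly to its right. Of the 30 in none, Slc6a18 alone passes its right edge, on 1 array at 108.7.

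Differences were tested on the 35 members that passed a filter on low values, within a limma fit of all 12648 genes kept. A gene kept had a mean log2(signal + 25) above the 40th percentile of all probe sets, or 6.255. Log2 differences here are on that scale, which understates changes of dim genes, and ± after a log2 difference is its standard error. All adjusted p-values are limma's, by Benjamini-Hochberg, with a threshold of 0.05. In the main fit they are over all 12648 genes. For a probe set fitted on its own they are over 22825 probe sets, and in other alternative fits over the genes kept there. "Rose" and "fell" are used of genes or probe sets past the threshold. The 28 members that failed the filter were not tested. Of those tested, 16 were past the threshold in at least 1 comparison and 19 in none.

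GH went with changes in 16 members. In WT muscle 6 of the 35 rose and 4 fell, which is 28.6% called. Of all genes tested 19.1% were called, 7.33% higher and 11.8% lower. In KO muscle 8 rose and 5 fell, or 37.1%. Of all genes tested 24.3% were called there, 8.93% higher and 15.4% lower. The median log2 difference over the members was -0.004 in WT and 0.118 in KO, beside -0.055 and -0.065 over all genes. Slc3a2, Slc7a2, Slc7a8, Slc38a3 and Slc43a3 rose and Slc1a5 and Slc36a2 fell in both genotypes, 5 and 2 genes, and 0 members changed in opposite directions by limma's calls. Called in WT alone were 3 (Slc7a6 higher, Slc6a6 and Slc38a4 lower). Called in KO alone were 6 (Slc7a5, Slc38a2 and Slc6a17 higher, Slc7a4, Slc38a6 and Slc43a2 lower). Being called in 1 genotype alone does not show a difference between genotypes, and the interaction test for that passed for Slc7a8 and Slc38a2 alone.

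The split of calls moved with the scaling of the arrays. Centring each array on the median of all its probe sets moved the median difference of all genes to -0.240 in WT and -0.245 in KO. The members were then 5 higher and 9 lower in WT and 6 and 7 in KO, beside 490 and 3940 of all 12648 genes in WT and 643 and 4194 in KO. Centring on the median of the genes kept, an alternative chosen after seeing the data, gave 6 and 2 in WT and 9 and 3 in KO, beside 1113 and 1098 of all genes in WT and 1359 and 1362 in KO. Without KO+GH 2 the members called in KO were 6 higher and 2 lower, beside 765 and 1304 of 12659 genes.

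STAT5 loss went with fewer changes. Without GH, 0 members rose and 1 fell in KO relative to WT (of all genes 1.45% were called, 0.775% higher and 0.68% lower). At an unadjusted limma p under 0.05 were 4 of the 35 members, beside 1477 of all 12648 genes. Leaving out WT 1, WT 2 or KO 2 gave 2 called members each time. Of all genes 98 were higher and 86 lower in the main fit. Those counts were 132 and 106 without WT 1, 101 and 104 without WT 2, and 67 and 57 without KO 2. With GH, 1 rose and 1 fell (of all genes 4.53% were called, 2.42% higher and 2.11% lower). Fitted on the 6 arrays with GH alone, 5 members were higher and 4 lower in KO, beside 618 and 682 of all 12648 genes. Without WT 1 and KO 3 together 4 were higher and 1 lower, beside 498 and 530 of 12606 genes. Those gained were Slc6a9, Slc7a5 and Slc38a9 in both fits, and Slc1a5, Slc6a6, Slc7a2 and Slc38a10 in the first. The interaction test, which asks whether the GH difference depends on genotype, had 1 positive and 1 negative call among 35 members, beside 0.933% of all genes called, 0.625% positive and 0.308% negative. The genotype comparison with GH and the GH comparison in KO share the KO+GH arrays.

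**Figure D2:**
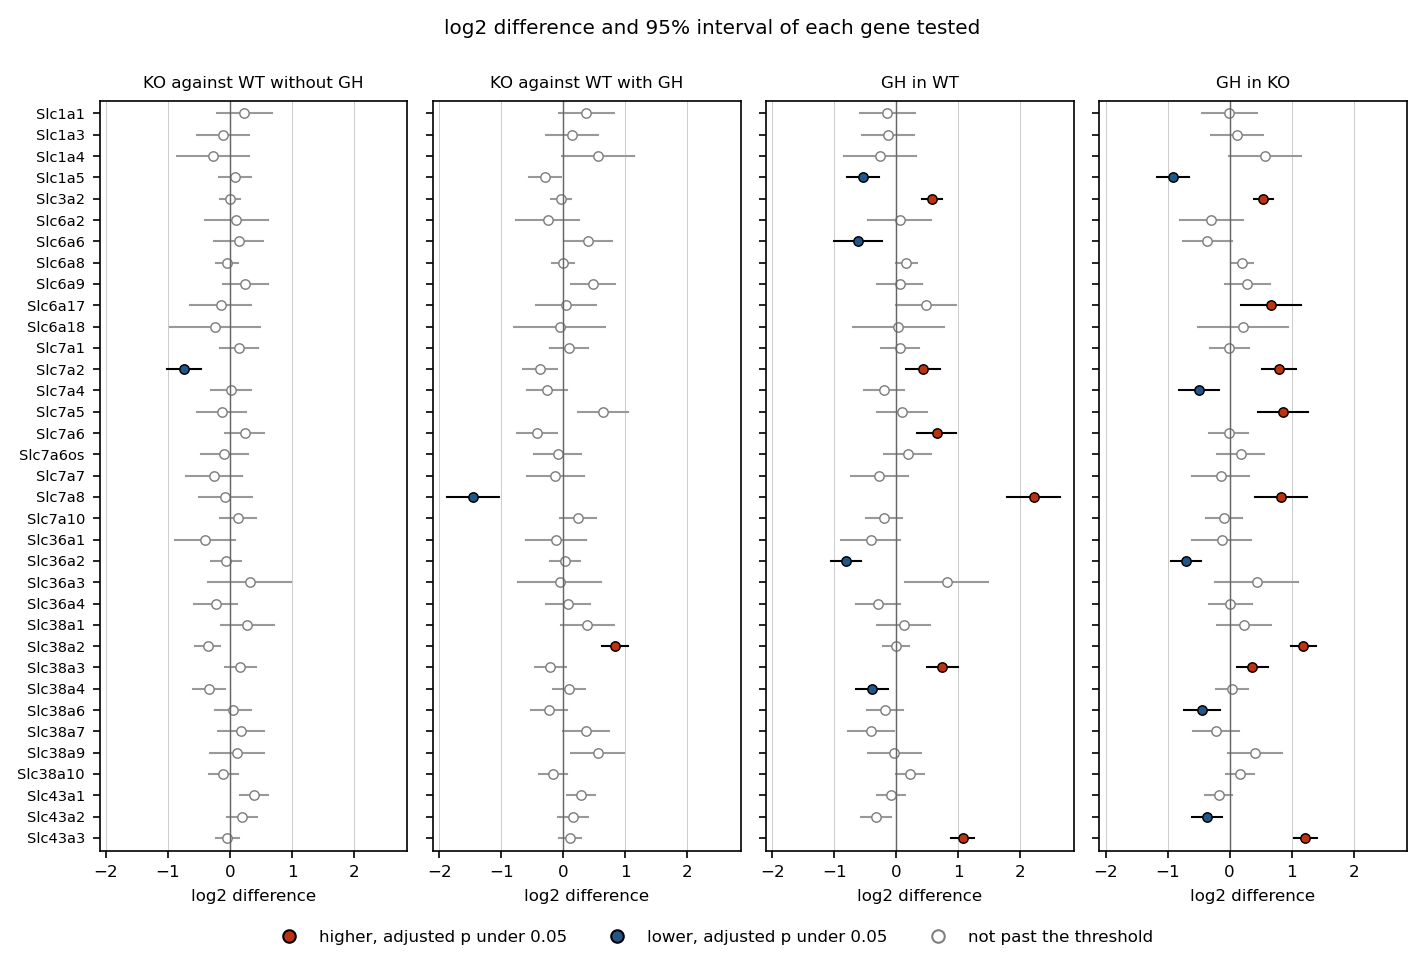
Log2 difference (point) and 95% interval (line) of the 35 members tested, by comparison; red and blue points are past an adjusted p of 0.05. The GH comparisons hold 10 and 13 coloured points and the genotype comparisons 1 and 2, and Slc7a8 lies farthest from 0 in the GH comparison in WT at 2.21.

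The heavy chain gene Slc3a2 was higher with GH in both genotypes by like amounts. Its signal was 1818, 1749 and 1681 on the WT arrays and 1747, 1745 and 1743 on the KO arrays. With GH it was 2823, 2564 and 2487 in WT and 2608, 2559 and 2507 in KO. Every array with GH lay above every array without. Slc3a2 rose by 0.58 ± 0.0737 on the log2 scale in WT (1.49-fold, adjusted p = 9.01e-05) and in KO by 0.55 ± 0.0737 (1.46-fold, adjusted p = 0.000105). KO and WT differed by -0.003 (95% interval -0.16 to 0.15) without GH and by -0.03 (-0.19 to 0.12) with GH, neither past the threshold.

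Slc7a8, a light chain partner of SLC3A2 that exchanges neutral amino acids, had the largest GH difference among the 35 members tested in WT. Its signal was 252, 149.6 and 264.1 in WT and 262.8, 212.7 and 150.4 in KO. With GH it was 999.8, 1144 and 1132 in WT but 337, 384.4 and 429.3 in KO. WT+GH arrays lay above all others, KO+GH arrays lay between, and the WT and KO arrays without GH overlapped. Slc7a8 rose by 2.21 ± 0.199 on the log2 scale in WT (4.63-fold, adjusted p = 3.32e-06) and by 0.83 ± 0.199 in KO (1.78-fold, adjusted p = 0.00723). Between the treated groups, KO was 2.74-fold lower than WT (log2 difference -1.46 ± 0.199, adjusted p = 0.000328). Without GH the genotypes differed by -0.07 (95% interval -0.50 to 0.35, adjusted p = 0.933). The GH difference was smaller in KO by 1.38 ± 0.281 in the interaction test (adjusted p = 0.0269). That interaction lost its call with median centring (adjusted p = 0.0547) and without any 1 of 7 arrays: KO 1, KO 2, WT+GH 1, WT+GH 2, WT+GH 3, KO+GH 1 or KO+GH 2 (adjusted p = 0.0549 to 0.0941). Only 1 probe set measured this gene. The same holds for Slc3a2, Slc7a5, Slc36a2, Slc43a1 and Slc43a3, and for 31 of the 63 members in all.

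**Figure D3:**
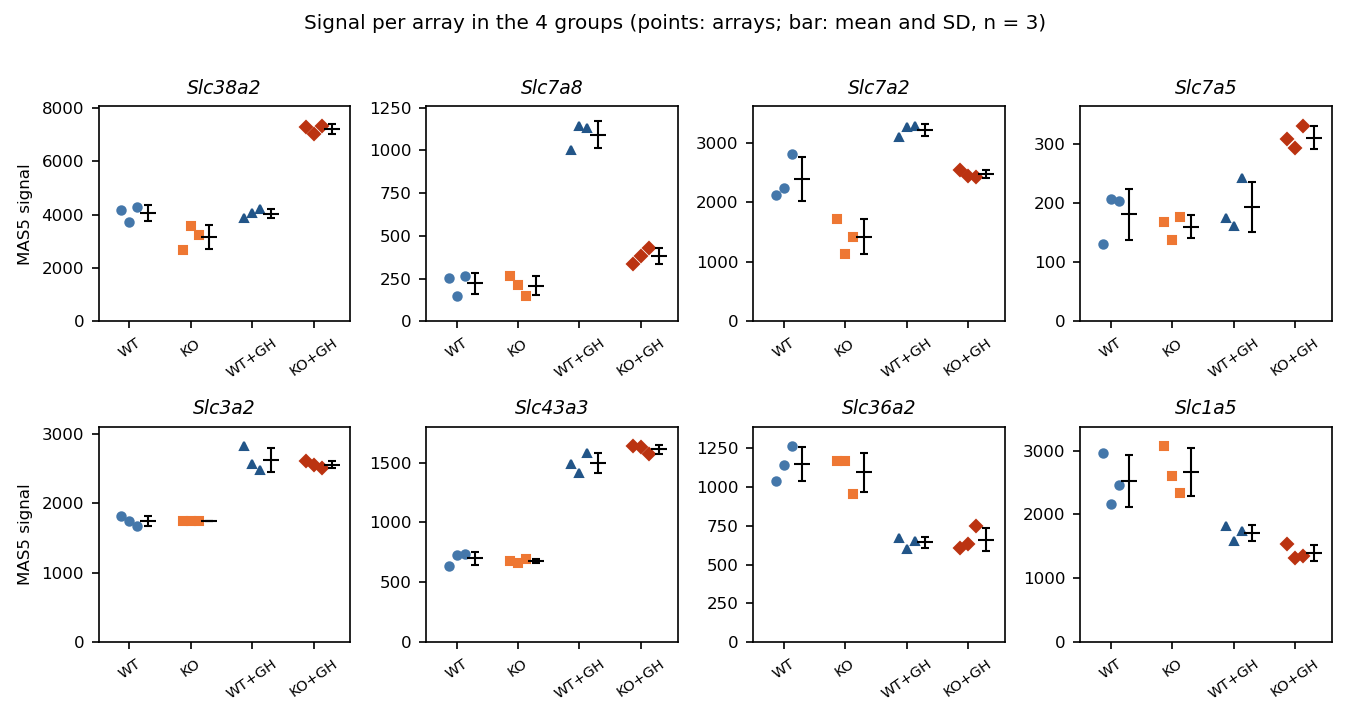
MAS5 signal (linear axis from 0) of 8 members in the 4 groups; points are arrays and the black bar is the group's mean and SD (n = 3). Slc7a8 is highest in WT+GH (999.8 to 1144), Slc38a2 and Slc7a5 are highest in KO+GH, and Slc3a2, Slc43a3, Slc36a2 and Slc1a5 separate the arrays with GH from those without.

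Slc7a5, the leucine carrier light chain, was high in KO+GH. Its signal was 131.6, 207.6 and 204.6 in WT and 168.1, 138.3 and 176.1 in KO. With GH it was 175.9, 162.4 and 242.2 in WT and 308.3, 294.3 and 331.7 in KO. The KO+GH arrays lay above all 9 others, which overlapped. Slc7a5 rose by 0.86 ± 0.187 with GH in KO (1.82-fold, adjusted p = 0.00387). With GH its KO minus WT difference was 0.64 ± 0.187 (adjusted p = 0.0692), and the adjusted p was 0.0244 when the untreated arrays were left out of the fit. In WT the GH difference was 0.09 (95% interval -0.31 to 0.49). Its interaction was 0.77 with an adjusted p of 0.283.

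Among the other light chains, Slc7a6, which exchanges cationic for neutral amino acids, rose with GH in WT. Its signal was 187.9 to 223.3 in WT, 202.7 to 285.3 in KO, 315.3 to 386.7 in WT+GH and 239.5 to 260.9 in KO+GH. The WT+GH arrays lay above all others. The rise was 0.65 ± 0.148 (adjusted p = 0.00722), and its other probe set gave 0.61. In KO the GH difference was -0.01, and the interaction of -0.66 had an adjusted p of 0.23. Slc7a7, its relative in macrophages and epithelia, and Slc7a10, a carrier of small neutral amino acids, passed in no comparison, with log2 differences of -0.27 to 0.24 over the 4 comparisons of 2 groups.

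The cationic amino acid carriers take up arginine, lysine and ornithine. Slc7a2 was the member that fell in KO without GH. Its signal was 2129, 2234 and 2814 in WT and 1718, 1130 and 1423 in KO. Under GH the signal was 3098, 3268 and 3287 in WT and 2545, 2448 and 2417 in KO. KO arrays lay below WT arrays in both settings. Slc7a2 fell in KO by 0.75 ± 0.129 (adjusted p = 0.00664), and under GH the difference was -0.38 ± 0.129 (adjusted p = 0.126). The first call was lost when the treated arrays were left out of the fit (adjusted p = 0.12) and with the mean of all probe sets (adjusted p = 0.169). Without the untreated arrays the second had an adjusted p of 0.000642. All 4 of its probe sets had a negative difference in both settings, -0.75 to -0.13 without GH and -0.45 to -0.08 with GH.

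GH went with more Slc7a2 in both genotypes. It rose by 0.43 ± 0.129 in WT (adjusted p = 0.0282) and by 0.80 ± 0.129 in KO (adjusted p = 0.000422), and its 4 probe sets gave 0.43 to 0.93 and 0.52 to 0.97. The rise in WT lost its call with median centring (adjusted p = 0.188) and without WT 1, WT 2 or any WT+GH array (adjusted p = 0.0542 to 0.0871). Slc7a1, the widely expressed cationic carrier, was 235.9 to 308.4 in WT and 244.1 to 338.1 in KO+GH and passed in no comparison. A second probe set of Slc7a1, fitted on its own, rose by 0.48 with GH in WT (adjusted p = 0.0334). Slc7a4, a related gene without a settled substrate, fell with GH in KO by 0.49 ± 0.152 (adjusted p = 0.0296), from 366.9 to 484.2 in KO to 254.2 to 319.1 in KO+GH. That call was lost without KO 3, KO+GH 1 or KO+GH 2 (adjusted p = 0.0776 to 0.116) and with its probe sets averaged (adjusted p = 0.192).

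Slc38a2, the sodium-coupled carrier of small neutral amino acids, was high in KO+GH. By its brightest probe set the signal was 4182, 3706 and 4263 in WT and 2675, 3586 and 3228 in KO. On the treated arrays it was 3856, 4054 and 4189 in WT and 7278, 7001 and 7324 in KO. The KO+GH arrays lay above all others, the KO arrays lay below both WT groups, and WT and WT+GH overlapped. Slc38a2 rose with GH in KO by 1.19 ± 0.0962 (2.28-fold, adjusted p = 6.80e-07), while in WT the difference was -0.004 (95% interval -0.21 to 0.20). Between the treated groups, KO was 1.78-fold higher than WT (log2 difference 0.83 ± 0.0962, adjusted p = 6.51e-05). Without GH the KO minus WT difference was -0.36 (adjusted p = 0.0851, and 0.0385 without KO 2). The interaction was 1.20 ± 0.136 (adjusted p = 0.000226).

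The probe sets of Slc38a2 differed on GH in WT and on KO against WT without GH. The latter difference was -0.36 by the brightest, 0.39 by the second (adjusted p = 0.172 fitted on its own) and 0.20 by the third. The second of its 3 probe sets had signals of 668.1, 793.4 and 805.5 in WT and 824.4, 1027 and 1153 in KO, and with GH 1491, 1390 and 1598 in WT and 2254, 2362 and 2430 in KO. All arrays with GH lay above all without. Fitted on its own, chosen after seeing the data, it rose with GH by 0.96 ± 0.117 in WT (adjusted p = 6.31e-05) and by 1.22 ± 0.117 in KO (adjusted p = 5.03e-06). It was higher in KO than in WT with GH by 0.65 (adjusted p = 0.00424), and its interaction was 0.26. Averaged over its probe sets the interaction was 0.58 (adjusted p = 0.272). The KO+GH minus WT+GH difference was positive by all 3 probe sets (0.83, 0.65 and 0.49, the last with an adjusted p of 0.45), whereas the interaction call rested on the brightest.

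**Figure D4:**
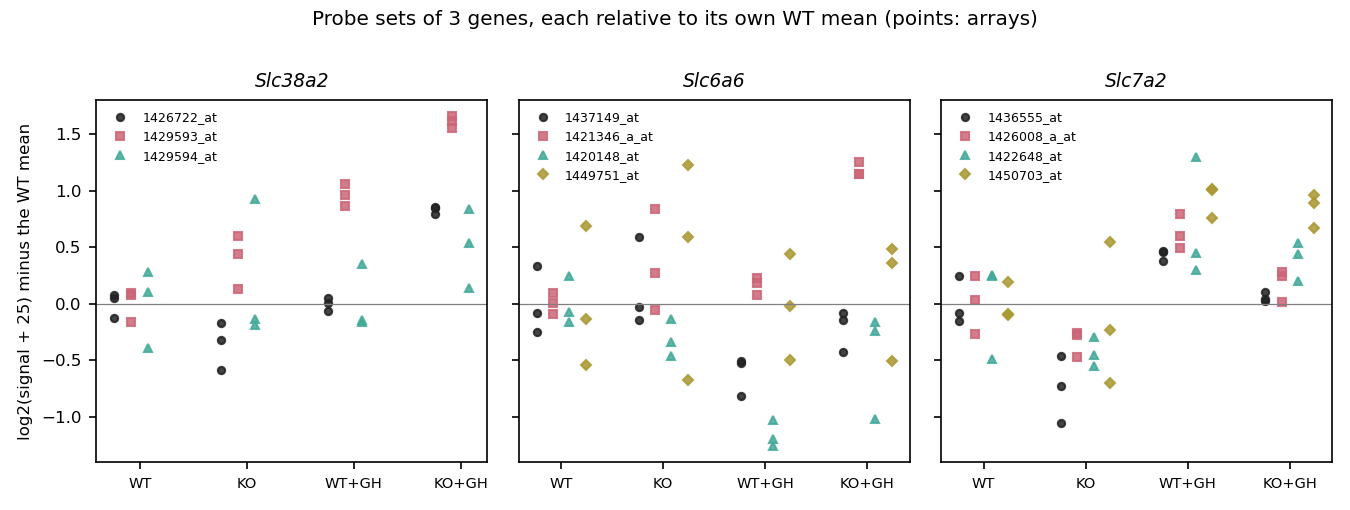
Log2(signal + 25) of every probe set of Slc38a2, Slc6a6 and Slc7a2 on each array, minus that probe set's own WT mean, by group. For Slc38a2 the brightest probe set stays near 0 in WT+GH while the second rises by 0.96; for Slc6a6 the probe sets part in KO+GH; for Slc7a2 the probe set means lie below 0 in KO.

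Promoter sequence is shown for the 2 members whose interaction passed the threshold, with the limits given above, and for Slc3a2, which rose with GH in both genotypes. The windows are the 250 bases before the RefSeq start on GRCm38.p6, all on the minus strand, written 5′ to 3′: chr15:96699729-96699978 for Slc38a2, chr14:54781887-54782136 for Slc7a8 and chr19:8713898-8714147 for Slc3a2. Capitals mark GGGCGG or its reverse complement, the GC box letters, which do not overlap another motif searched.
Slc38a2: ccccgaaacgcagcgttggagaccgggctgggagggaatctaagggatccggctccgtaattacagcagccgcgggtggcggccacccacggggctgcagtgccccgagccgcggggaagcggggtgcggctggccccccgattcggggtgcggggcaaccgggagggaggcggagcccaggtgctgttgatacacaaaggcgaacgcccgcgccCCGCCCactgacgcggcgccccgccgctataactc
Slc7a8: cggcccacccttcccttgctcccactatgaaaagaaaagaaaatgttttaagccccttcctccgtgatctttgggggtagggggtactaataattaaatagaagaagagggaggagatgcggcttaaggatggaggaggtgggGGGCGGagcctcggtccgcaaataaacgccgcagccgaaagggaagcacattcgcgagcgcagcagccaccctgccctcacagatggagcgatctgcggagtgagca
Slc3a2: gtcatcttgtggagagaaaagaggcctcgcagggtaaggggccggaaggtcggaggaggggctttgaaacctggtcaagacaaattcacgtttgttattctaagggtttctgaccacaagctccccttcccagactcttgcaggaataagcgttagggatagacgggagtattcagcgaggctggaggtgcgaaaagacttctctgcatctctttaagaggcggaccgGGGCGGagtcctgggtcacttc
GC content was 72% for Slc38a2, 55.6% for Slc7a8 and 53.6% for Slc3a2, beside a median of 52.4% over all 32851 windows. Both strands of the windows were searched for TTCNNNGAA (letters of a STAT dimer site), TGATGNAA (core of the amino acid response element) and the palindromic glucocorticoid response element. None of these stands in the 3 windows. RefSeq windows matched 46 of the 63 members, with 67 windows. TTCNNNGAA stood in 5 of the 67 member windows (Slc1a3, Slc7a1, Slc7a11, Slc36a1os and Slc38a9) and in 7.02% of all windows. TGATGNAA stood in 4 member windows (Slc6a21, Slc7a7 and Slc7a11) and in 3.45% of all windows, and the glucocorticoid element in 0 member windows and 0.009% of all. The GC box and 3 other short motifs were chosen after seeing the data. The first, GGGCGG, stood in 31 of the 67 member windows, of 28 genes, and in 32.7% of all windows. CCAAT stood in 16 member windows (33.9% of all windows), TATAAA in 6 (12.4%) and AGAACA in 9 (16.1%), and none of these 3 in the windows printed.

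Slc38a3, which moves glutamine, asparagine and histidine, rose with GH in both genotypes. Its signal was 1018 to 1334 in WT and 1228 to 1468 in KO, and with GH 1793 to 2361 in WT and 1671 to 1800 in KO. The rise was 0.74 ± 0.118 in WT (adjusted p = 0.000561) and 0.36 ± 0.118 in KO (adjusted p = 0.036). The latter lost its call with median centring (adjusted p = 0.25), with its probe sets averaged (adjusted p = 0.177) and without KO 1, KO 3 or any KO+GH array (adjusted p = 0.0701 to 0.119). The interaction was -0.37 (adjusted p = 0.449).

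Slc38a4, a muscle and liver carrier of the same transport system as Slc38a2, fell with GH in WT by 0.39 ± 0.12 (adjusted p = 0.0343). Its signal was 1845 to 2684 in WT and 1607 to 1906 in WT+GH, so the arrays overlapped. The call was lost without WT 1, WT 3, WT+GH 2 or WT+GH 3 (adjusted p = 0.0954 to 0.126) and with only the arrays compared (adjusted p = 0.0731). In KO the GH difference was 0.05. Slc38a6 fell with GH in KO by 0.45 ± 0.136 (adjusted p = 0.0266), a call lost without KO 1, KO 3, KO+GH 1 or KO+GH 2 (adjusted p = 0.0553 to 0.0998). Averaged over its probe sets the difference was -0.25 (adjusted p = 0.481).

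The lysosomal arginine sensor Slc38a9 was 163.3 to 202.7 in WT, 159.8 to 312.6 in KO, 159.3 to 199.2 in WT+GH and 274 to 292.6 in KO+GH. Its KO minus WT difference with GH was 0.56 (adjusted p = 0.158), and it passed with the untreated arrays left out, without KO 3, and without WT 1 and KO 3 together. That is by the brightest of its 7 probe sets. The others past the filter gave 0.24, -0.002, -0.18 and -0.21 for the same difference, and those below it -0.43 and -0.55. Another of its probe sets, fitted on its own, rose with GH in KO by 0.59 ± 0.198 (adjusted p = 0.0415), where the probe sets ranged from -0.33 to 0.59. Slc38a1, Slc38a7 and Slc38a10 also passed in no comparison.

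Among the Slc36 genes the called fall with GH was in Slc36a2, a proton-coupled carrier of glycine, alanine and proline. Its signal was 1040, 1139 and 1261 in WT and 1165, 1168 and 951 in KO. The treated arrays read 672.5, 602.7 and 654.6 in WT and 607, 630 and 745 in KO. All arrays with GH lay below all without. Slc36a2 fell by 0.81 ± 0.113 in WT (adjusted p = 0.000198) and by 0.71 ± 0.113 in KO (adjusted p = 0.000428). Lysosomal Slc36a1 had WT arrays of 188.1 to 329.1 and KO+GH arrays of 121.3 to 175.4 and passed in no comparison, with a GH difference in WT of -0.41 (adjusted p = 0.219, and 0.0475 with median centring). Slc36a4 and Slc36a3 also passed in none, and Slc36a3 had a GH difference of 0.81 in WT (adjusted p = 0.0848).

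Slc1a5, which exchanges glutamine for other neutral amino acids, was lower with GH. Its signal was 2958, 2157 and 2465 in WT and 3066, 2608 and 2330 in KO. After GH it was 1821, 1576 and 1742 in WT and 1542, 1314 and 1342 in KO. All arrays with GH lay below all without. Slc1a5 fell by 0.54 ± 0.122 in WT (adjusted p = 0.00604) and by 0.91 ± 0.122 in KO (adjusted p = 9.10e-05). Its other, dimmer probe set gave 0.26 in WT and -0.10 in KO, and with the mean of both the call in WT was lost (adjusted p = 0.354). Slc1a1 and Slc1a3, both glutamate carriers, and Slc1a4 passed in no comparison. Fitted on its own, another probe set of Slc1a3 rose with GH in WT by 0.79 ± 0.246 (adjusted p = 0.0355).

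Slc43a3, which is grouped with the leucine carriers by sequence and is known to carry purine bases, rose with GH in both genotypes. Its signal was 636.3, 731 and 732.6 in WT and 677.3, 664.6 and 692.6 in KO. Under GH the signal was 1489, 1414 and 1578 in WT and 1635, 1627 and 1570 in KO. No array with GH overlapped one without. The rise was 1.07 ± 0.0858 in WT (2.10-fold, adjusted p = 1.13e-06) and 1.22 ± 0.0858 in KO (2.33-fold, adjusted p = 1.38e-07).

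The leucine uniporters did not share that rise. Slc43a2 fell with GH in KO by 0.36 ± 0.113 (adjusted p = 0.032), but by the mean of its probe sets the difference was 0.01 (adjusted p = 0.96). That mean takes in a probe set below the filter, with a mean signal of 11.7 and a difference of 0.47. The other probe set past the filter gave -0.08. The call for Slc43a2 was also lost without KO 1, KO 2, KO+GH 2 or KO+GH 3 (adjusted p = 0.0949 to 0.119). In WT its GH difference was -0.33 (adjusted p = 0.0559, and 0.00655 with median centring). Slc43a1 was 775.8 to 990.4 in WT and 1111 to 1170 in KO, without overlap, a difference of 0.38 (adjusted p = 0.0956, and 0.0228 without WT 1). With GH its KO minus WT difference was 0.29 (adjusted p = 0.158).

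In the Slc6 family the taurine carrier Slc6a6 gave different answers by probe set. Its brightest probe set was 1918 to 2892 in WT, 2068 to 3458 in KO, 1285 to 1602 in WT+GH and 1691 to 2157 in KO+GH. It fell with GH in WT by 0.62 ± 0.183 (adjusted p = 0.03), a call lost without WT 2, WT 3 or any WT+GH array (adjusted p = 0.0557 to 0.114) and with its probe sets averaged (adjusted p = 0.177). A second probe set of like brightness was 1320 to 1505 in WT, 1356 to 2539 in KO, 1485 to 1652 in WT+GH and 3147 to 3396 in KO+GH. Fitted on its own, chosen after seeing the data, it rose with GH in KO by 0.83 ± 0.159 (adjusted p = 0.0018) and was higher in KO than in WT with GH by 1.02 ± 0.159 (adjusted p = 0.00136). Another, dimmer probe set fell with GH in WT by 1.16 ± 0.222 (adjusted p = 0.00222). The creatine carrier Slc6a8 lay between 3008 and 3904 on the 12 arrays by the brighter of its 2 probe sets. By that probe set its differences were -0.04 (95% interval -0.22 to 0.13) and -0.01 (-0.18 to 0.17) for KO against WT without and with GH. For GH in WT and KO they were 0.16 and 0.20 (adjusted p = 0.19 and 0.0972), and -0.10 and -0.06 by its other probe set. Slc6a17 rose with GH in KO by 0.67 ± 0.227 (adjusted p = 0.043), a call lost without any 1 of 9 arrays (WT 3, KO 2, KO 3 and each treated array), with no filter, with only the arrays compared, with its probe sets averaged, with median centring and with quantile normalization (adjusted p = 0.0504 to 0.156).

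Other genes that handle amino acids were taken from 4 lists written with earlier results of these data known. Of 34 genes of amino acid sensing by mTORC1, 4 rose and 3 fell with GH in WT (20.6% called, beside 19.1% of all genes) and 3 rose and 5 fell in KO (23.5%, beside 24.3%). The mTORC1 inhibitor Ddit4 rose by 3.65 ± 0.193 in WT and by 2.78 ± 0.193 in KO, and fell in KO relative to WT with GH by 1.69 ± 0.193 (adjusted p = 7.24e-08, 3.53e-07 and 0.000101). The leucine sensor Sesn1 rose with GH in WT by 0.92 ± 0.118 and the arginine sensor Castor1 by 0.59 ± 0.134 (adjusted p = 8.85e-05 and 0.00688). Rragc, a GTPase of the lysosomal complex, fell in KO by 0.41 ± 0.0814 with GH, and Flcn, which acts on it, by 0.82 ± 0.176 (adjusted p = 0.00197 and 0.00391). With GH, 1 of the 34 rose in KO relative to WT and 2 fell (8.8% called, beside 4.53% of all genes). The 2 were Ddit4 and Flcn (-1.04 ± 0.176, adjusted p = 0.00214), and the 1 was Castor2 (0.59 ± 0.125, adjusted p = 0.0111). Without GH, 0 of the 34 passed limma's threshold, beside 1.45% of all genes. At an unadjusted p under 0.05 were 5 of the 34, beside 1477 of all 12648 genes.

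Of 24 genes of the ATF4 amino acid response, which cells switch on when amino acids run short, 3 rose and 3 fell with GH in WT (25% called, beside 19.1% of all genes) and 4 rose and 3 fell in KO (29.2%, beside 24.3%). Cebpb rose by 0.67 ± 0.097 in WT and 1.02 ± 0.097 in KO (adjusted p = 0.000243 and 3.78e-06). The lipoprotein receptor Vldlr rose by 0.39 ± 0.0714 in WT and 1.01 ± 0.0714 in KO (adjusted p = 0.00158 and 1.38e-07), and its interaction of 0.62 passed (adjusted p = 0.00498). Stc2 rose by 1.05 ± 0.171 in KO (adjusted p = 0.000488), and the transcription factor Atf5 fell by 0.76 ± 0.113 in WT (adjusted p = 0.000311). With GH 3 of the 24 rose in KO relative to WT and 1 fell (16.7% called, beside 4.53% of all genes). Vldlr rose by 0.50 ± 0.0714, Ppp1r15a, which restores translation after stress, by 0.57 ± 0.112, and the transcription factor Atf3 by 2.32 ± 0.401 (adjusted p = 0.000438, 0.00586 and 0.00716). The glutathione-degrading enzyme gene Chac1 fell in KO relative to WT by 0.95 ± 0.212 without GH (adjusted p = 0.0485), the 1 call among the 24 there, and by 0.87 ± 0.212 with GH (adjusted p = 0.0336). The 1 call without GH is 4.2% of the 24, beside 1.45% of all genes.

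Of 34 amino acid metabolism genes, 4 rose and 3 fell with GH in WT (20.6% called, beside 19.1% of all genes) and 5 rose and 6 fell in KO (32.4%, beside 24.3%). Glul, which makes glutamine, rose by 1.29 ± 0.145 in WT and 1.78 ± 0.145 in KO (adjusted p = 3.26e-05 and 8.92e-07). Gpt2, an alanine aminotransferase gene, rose by 0.94 ± 0.109 and 1.01 ± 0.109 (adjusted p = 3.76e-05 and 1.21e-05). Prodh, which degrades proline, rose in WT by 1.43 ± 0.111 (adjusted p = 8.58e-07), and Cdo1, which oxidises cysteine, fell in KO by 1.03 ± 0.122 (adjusted p = 2.94e-05). Without GH, 1 rose and 2 fell in KO relative to WT (8.8% called, beside 1.45% of all genes). Gamt, the last enzyme of creatine synthesis, rose by 1.29 ± 0.101, while Odc1, which turns ornithine into putrescine, fell by 1.004 ± 0.147 and Gpt2 by 0.67 ± 0.109 (adjusted p = 6.14e-06, 0.00217 and 0.00455). With GH 1 rose and 3 fell (11.8% called, beside 4.53% of all genes). Gamt rose by 1.08 ± 0.101, and Gpt2 fell by 0.60 ± 0.109 and Aldh18a1 by 0.74 ± 0.173 (adjusted p = 7.65e-06, 0.00351 and 0.0212), with Ppm1k the third to fall. Of 10 tested transport genes outside the 7 families, 0 passed limma's threshold for KO against WT without GH and 0 for GH in WT. Of all genes 1.45% and 19.1% were called there. At an unadjusted p under 0.05 were 2 and 3 of the 10, beside 1477 and 4120 of all 12648 genes. With GH in KO, 1 rose and 3 fell (40% called, beside 24.3% of all genes). The falls there were Slc25a22 (-0.78 ± 0.171), the aromatic amino acid carrier Slc16a10 (-0.63 ± 0.148) and Slc25a44, a mitochondrial carrier of branched-chain amino acids (-0.31 ± 0.105), with adjusted p-values of 0.00423, 0.0062 and 0.0402. In KO relative to WT with GH 2 of the 10 fell (20% called, beside 4.53% of all genes). These were Slc15a4 and Slc25a22 (-0.61 ± 0.113 and -0.81 ± 0.171, adjusted p = 0.00407 and 0.0111). In the interaction, 0 of the 34 sensing, 0 of the 34 metabolism and 0 of the 10 transport genes passed limma's threshold. Of all genes 0.933% did. At an unadjusted p under 0.05 were 7, 5 and 2 of these lists, beside 1319 of all 12648 genes.

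Markers of other cell types moved with GH beside these genes. In bulk muscle, fewer cells of a type and less RNA per cell cannot be told apart. The summed signal of 8 macrophage markers was 11260 to 18080 in WT and 10780 to 15160 in KO, and 8592 to 8827 in WT+GH and 8523 to 8711 in KO+GH, with 8 of 8 above background on all arrays. The sum of 9 neutrophil markers was 657.9 to 843.2 in WT and 566.1 to 749.4 in KO, and 3034 to 3122 in WT+GH and 1631 to 1893 in KO+GH, with 1 of 9 above background on all arrays. Those not above it on all arrays were Camp, Cxcr2, Elane, Ltf, Mpo, Ngp, S100a8 and S100a9. The 5 adipocyte markers summed to 40120 to 67240 without GH and 35070 to 37880 with GH over both genotypes. Schwann cell markers summed to 5030 to 6034 without GH and 6484 to 7588 with GH. Endothelial markers summed to 5871 to 7078 without GH and 5415 to 6060 with GH. Fibroblast markers summed to 69230 to 76800 without GH and 55700 to 66480 with GH. Smooth muscle markers summed to 7355 to 8593 without GH and 7141 to 8038 with GH, and red cell markers to 254.8 to 513.2 and 429 to 640. Skeletal muscle markers summed to 525500 to 666500 without GH, 448300 to 625700 in WT+GH and 436500 to 459600 in KO+GH. Of all genes tested, 7.33% rose and 11.8% fell with GH in WT by limma, and 8.93% rose and 15.4% fell in KO. Of the 12 skeletal muscle markers 1 rose and 0 fell with GH in WT, and 1 rose and 8 fell (66.7%) in KO. Of 5 smooth muscle markers 1 rose and 1 fell with GH in WT. In KO 3 of them rose (60%) and 1 fell (20%), with a median difference of 0.494. Of 8 macrophage markers 4 fell (50%) with GH in WT and 6 (75%) in KO, and 0 rose. Of 6 neutrophil markers tested 3 rose (50%) with GH in WT, and 2 rose (33.3%) and 1 fell (16.7%) in KO. Among these 6, 2 fell (33.3%) in KO relative to WT with GH, beside 2.11% of all genes. The part of these shifts in the transporter results was not tested.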

How the data were processed

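Each of 12 arrays was hybridised with biotin-labelled total RNA of 1 sample, 3 arrays in each of 4 groups. The deposited values are linear intensity, namely MAS5 signal, with MAS5 named in the submitters' processing notes. Its version, settings and target are not given in the sources used here. The mean of each array without the lowest and highest 2% of probe sets was 500, so the authors' values were scaled to 1 target. No detection calls were used.

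Probe sets were named from the platform annotation. Of 45101, 34945 had 1 gene symbol, 932 several, 9160 none and 64 were controls; those without exactly 1 symbol were left out. Values were taken as log2(signal + 25). Genes whose mean passed the 40th percentile over all probe sets were fitted with limma 3.58.1 in R 4.3.3 (statmod 1.5.0): 1 mean per group, 8 residual degrees of freedom, eBayes with trend and robust settings, 2-sided. The method was tested on simulated data. The number of arrays limits the precision.

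Every member is accounted for. Members past the threshold are named in each comparison, as are Slc7a5, Slc3a2, Slc7a1, Slc7a2, Slc38a2, Slc38a4, Slc6a6, Slc6a8, Slc1a5, Slc36a1, Slc43a1, Slc43a2, and up to 3 genes of each pathway list by smallest p. Genes named beyond that were chosen after their values were seen. Members and lists were chosen with earlier results of these data known. Alternatives were another pseudocount, filters, scalings, probe set rules, fewer groups and leaving out arrays. The mean of all probe sets of a gene takes in those below the filter. Promoter windows are RefSeq's, on GRCm38.p6, matched by symbol.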

Additional observations from a re-analysis of the deposited data

Results flagged for a closer look

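The GH difference of Slc7a8 and of Slc38a2 differed between genotypes by the interaction test. For Slc7a8 the interaction was -1.38 on the log2 scale, with a larger rise in WT, where all 3 WT+GH arrays lay above the 3 KO+GH arrays. For Slc38a2 it was 1.20, with a rise in KO by the brightest probe set, where all 3 KO+GH arrays lay above the other 9. Both values carry the limits given with them above: the first lost its call without any 1 of 7 arrays, and the second rested on 1 of 3 probe sets.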

How the results depend on the processing

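No paired analysis was possible because no animal number in the labels occurs in more than 1 group. Members above background on all arrays numbered 23 at the 99th percentile of the receptor probe sets, 32 at the 40th percentile of all probe sets and 30 to 31 with 1 array left out, against 30. Members called for KO against WT without GH numbered 1, and 1 to 2 with 1 array left out, 0 with the mean of all probe sets, 0 with only the arrays compared and 2 without WT 1 and KO 3 together, an alternative chosen after seeing the data. Calls among all genes were 98 higher and 86 lower, and 82 and 74 with the mean of all probe sets. They were 23 and 16 with only the arrays compared and 154 and 120 without WT 1 and KO 3. For KO against WT with GH members called numbered 2, and 2 to 3 with 1 array left out. They numbered 9 with only the arrays compared and 5 without WT 1 and KO 3, beside the counts of all genes given above. For GH in WT members called numbered 10, and 7 to 11 with 1 array left out. Calls among all genes were 927 higher and 1489 lower. They were 633 and 989 without WT+GH 3, which gave the 7, and 1027 and 1675 without KO 3, which gave the 11. For GH in KO members called numbered 13. They numbered 8 to 14 with 1 array left out (8 without KO+GH 2) and 8 with the mean of all probe sets. Calls among all genes were 1130 higher and 1949 lower. They were 765 and 1304 without KO+GH 2, 1301 and 2329 without WT 1 (14 members) and 1164 and 1410 with probe sets averaged. For the interaction members called numbered 2, and 1 to 2 with 1 array left out. They numbered 1 with median centring (Slc38a2 left) and 1 with the mean of all probe sets (Slc7a8 left). Calls among all genes were 79 positive and 39 negative, 72 and 24 with median centring, and 63 and 30 with probe sets averaged. Slc43a2 with GH in KO was 0.0123 with the mean of all probe sets, opposite in sign to its brightest probe set. That mean takes in a probe set below the filter. The causes were not tested. The other results for single genes kept their sign and their side of the threshold in 1459 cases, stayed short of the threshold with the other sign in 61, lost their call in 71 and gained one in 23. Signal near background limits what can be said of the 28 members not tested.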
